A study of Mus musculus with 27 samples.

Results

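Meg3, Rian and Mirg are 3 noncoding RNAs that lie one after another on mouse chromosome 12, and they were followed here by gene symbol through all 27 libraries of a study of mouse primary cortical cells. The 3 symbols matched 3 of the 59489 entries of the gene table, 1 entry each. The cells came from wild-type embryos at embryonic day 16.5 and were kept 14 days in culture, and polyadenylated RNA was sequenced from 9 groups of 3 libraries. In 3 groups the cells had DRB (50 µM, 2 h), which stops RNA polymerase II from elongating, and were left unstimulated, given bicuculline (20 µM, 1 h), a blocker of GABA-A receptors that raises neuronal activity, or given the neurotrophin BDNF (50 ng/mL, 1 h). The other 6 groups had triptolide (1 µM, 3 h), which stops transcription from starting. These cells were unstimulated or had bicuculline (20 µM, 1 h), and in each state the libraries came from a whole-cell extract, from nuclei or from cytosol. Every group therefore carried an inhibitor of transcription, and a level measured here is that of RNA present under the inhibitor. The DRB libraries carry no label of an RNA fraction. The study asks how each stimulus changes the neuronal transcriptome.

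The Dlk1-Dio3 domain is imprinted, which means that each of its genes is read from the copy of a set parent. The protein-coding genes Dlk1, Rtl1 and Dio3 are read from the paternal copy, and Meg3 (also called Gtl2), Rian and Mirg from the maternal copy, where the 3 are thought to belong to 1 long transcription unit. Meg3 is a nuclear RNA reported to bind the Polycomb repressive complex that methylates histone H3, Rian is the host of a cluster of C/D box small nucleolar RNAs, and Mirg is the host of a large cluster of microRNAs. MicroRNAs are cut from hairpins in such host RNAs, and several of this cluster act in neurons; miR-134 is known to limit the size of dendritic spines.

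In mm10 coordinates the Meg3 entry (GSMG0065028) spans chr12:109540996-109571729, the Rian entry (GSMG0008537) chr12:109603945-109661716 and the Mirg entry (GSMG0008542) chr12:109729764-109749455. GENCODE M21, which is on the same build, puts all 3 on the plus strand, with Meg3 and Mirg as lincRNA and Rian as processed transcript. Its merged exons cover 18089 bases in Meg3 from 11 transcripts, 18234 bases in Rian from 20 transcripts and 7292 bases in Mirg from 12 transcripts. The Meg3 span holds 2 microRNA hairpins and, on the minus strand, 1 other lincRNA. The Rian span holds 13 small nucleolar RNAs, 4 microRNA hairpins and, on its own strand, 1 other lincRNA. The Mirg span holds 14 microRNA hairpins on its strand. A value of Meg3, Rian or Mirg is 1 number for the whole entry, and the small RNAs inside it were not measured separately by it.

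The RefSeq table of mature microRNAs (GRCm38.p6) gives 3 mature sequences inside Meg3, 6 inside Rian and 26 inside Mirg. The sequences below were chosen to show what each host carries; the capitals mark the seed, bases 2 to 8 from the 5′ end, through which a microRNA pairs with its targets. The 26 sequences inside Mirg have 25 different seeds, and the last pair shown share theirs.
mmu-miR-770-5p (Meg3): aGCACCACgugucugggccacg
mmu-miR-370-3p (Rian): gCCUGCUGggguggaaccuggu
mmu-miR-341-5p (Rian): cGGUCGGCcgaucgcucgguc
mmu-miR-134-5p (Mirg): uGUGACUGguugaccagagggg
mmu-miR-382-5p (Mirg): gAAGUUGUucgugguggauucg
mmu-miR-485-3p (Mirg): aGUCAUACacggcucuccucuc
mmu-miR-410-3p (Mirg): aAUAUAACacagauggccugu
mmu-miR-453 (Mirg): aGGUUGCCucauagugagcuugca
mmu-miR-496a-5p (Mirg): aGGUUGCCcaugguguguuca

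The promoter window of Meg3 is shown because the stimuli used here signal to CREB, the factor that binds the cAMP response element. RefSeq gives 2 promoter windows of 300 bases for Meg3, and the 5′ one, at chr12:109540746-109541045 on the plus strand of GRCm38.p6, reads as follows, with a cAMP response element (TGACGTCA, its own reverse complement) and a TATA motif (TATATAA) in capitals.
Meg3 promoter: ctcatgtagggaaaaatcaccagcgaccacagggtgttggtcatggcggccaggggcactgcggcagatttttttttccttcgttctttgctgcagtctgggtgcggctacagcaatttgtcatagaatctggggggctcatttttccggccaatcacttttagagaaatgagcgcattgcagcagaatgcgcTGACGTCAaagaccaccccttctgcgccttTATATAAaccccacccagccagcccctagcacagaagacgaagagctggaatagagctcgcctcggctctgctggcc
TGACGTCA stood in 588 of 32851 such mouse windows (1.79%) and TATATAA, on either strand, in 1065 (3.24%). Neither was in the single window of Rian or of Mirg, and a match or its lack says only what these letters hold. The Mirg window, at chr12:109734731-109735030, lies inside the Mirg entry and not at the entry's start (109729764).

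The libraries were deep, with about 67500000 to 147960000 fragments each as estimated from the steps of low values in single-exon genes. Of the marker lists, pan-neuronal genes summed to 1720 to 3018 FPKM (fragments per kilobase of exon, scaled to library size) in a library, astrocyte genes to 508 to 853, and oligodendrocyte-lineage genes to 64.1 to 231. Microglia genes summed to at most 6.15 FPKM and vascular and mesenchymal genes to at most 5.77. The libraries therefore held RNA of neuronal, astrocyte and oligodendrocyte-lineage marker genes. The stimulation check gene Fos, an immediate early gene, stood at 11.8 ± 4.81 FPKM (SD, n = 3) unstimulated, 144 ± 3.04 with bicuculline and 180 ± 18.9 with BDNF under DRB, but at 3.03 ± 0.678 and 5.42 ± 1.15 without and with bicuculline in whole cells under triptolide.

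Meg3 was among the most abundant RNAs of the nucleus. In unstimulated nuclei under triptolide it read 798, 826 and 768 FPKM in replicates 1, 2 and 3, and in unstimulated cytosol 83.3, 76.9 and 76.6. Its mean ranked 23rd among all entries in the nucleus and 913th in the cytosol. With bicuculline the nuclear values were 608, 1265 and 623, and the cytosolic values 115, 90.8 and 75.4. Whole cells lay between, with 324, 554 and 437 unstimulated and 358, 458 and 344 with bicuculline. In each state the 3 fractions did not overlap, and the replicate 2 nucleus with bicuculline stood above the other 5 nuclei.

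Rian differed less between the compartments. It read 301, 309 and 272 FPKM in unstimulated nuclei and 119, 114 and 103 in unstimulated cytosol. With bicuculline the nuclear values were 272, 414 and 239 and the cytosolic values 119, 117 and 119. Whole cells read 177, 223 and 196 unstimulated and 187, 206 and 182 with bicuculline. The 3 fractions again did not overlap in either state, and replicate 2 was again the highest nucleus with bicuculline.

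Mirg was the least abundant of the 3 and close to the detection filter in the cytosol. It read 20.2, 18.9 and 19.7 FPKM in unstimulated nuclei and 1.72, 1.34 and 0.996 in unstimulated cytosol. With bicuculline the nuclear values were 19.1, 31.1 and 17.02 and the cytosolic values 2.57, 2.03 and 1.58. Whole cells read 6.99, 10.7 and 8.88 unstimulated and 9.03, 10.7 and 8.30 with bicuculline. The fractions did not overlap in either state, an order (nucleus, whole cell, cytosol) that 24.2% of the 14205 genes tested showed in unstimulated cells and 17.9% with bicuculline.

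**Figure D1:**
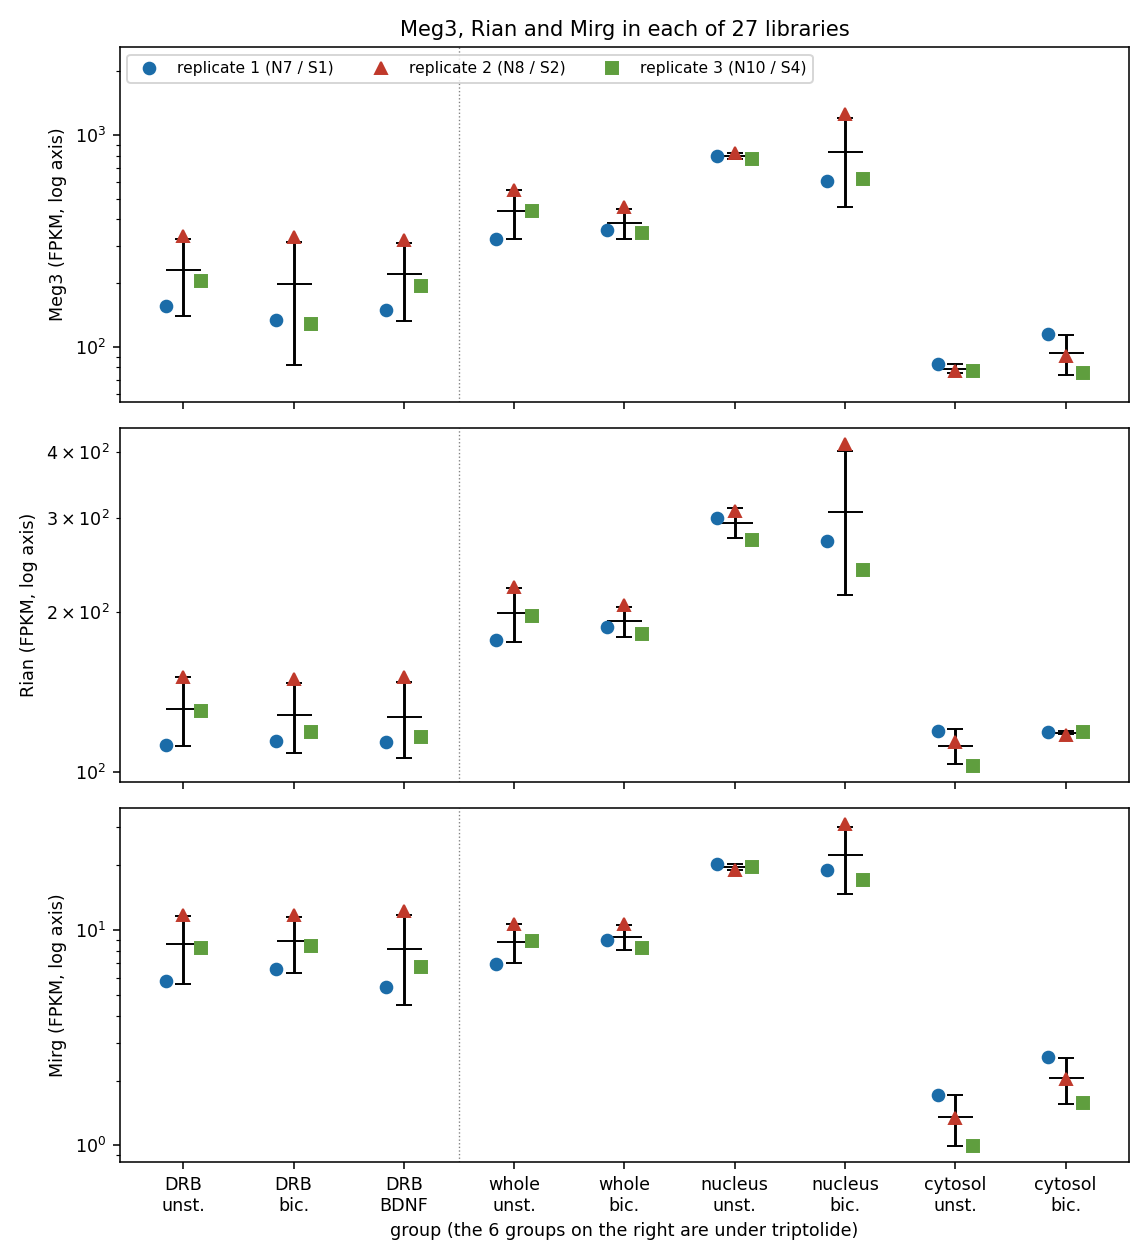
FPKM (log axis) of Meg3, Rian and Mirg in each library, by group; points are libraries, horizontal bars are means and vertical bars are SD (n = 3). Replicate 2 is the highest under DRB in all 3 groups for all 3 RNAs, and the nucleus is above whole cells, which are above the cytosol.

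Under DRB the values followed the replicate number. Meg3 read 156, 333 and 204 FPKM in unstimulated cells, 133, 332 and 129 with bicuculline, and 149, 319 and 195 with BDNF. Rian read 112, 151 and 130.03 in unstimulated cells, 114, 149.7 and 119 with bicuculline, and 114, 151 and 116 with BDNF. Mirg read 5.83, 11.8 and 8.22 in unstimulated cells, 6.56, 11.7 and 8.46 with bicuculline, and 5.43, 12.3 and 6.72 with BDNF. For each of the 3 RNAs the 3 groups overlapped, and replicate 2 was the highest library of every group. Ordered by mean, Meg3 and Rian were highest in the nucleus, then in whole cells under triptolide, then under DRB, then in the cytosol. This order was not free of overlap. Meg3 in replicate 2 under DRB, unstimulated (333 FPKM) or with bicuculline (332), stood above replicate 1 of unstimulated whole cells under triptolide (324). The DRB groups of Rian overlapped its cytosol in both states, and Mirg under DRB overlapped whole cells under triptolide. The inhibitors, their times and the numbers of the libraries differ between the experiments, so levels were not tested between them.

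The first comparison asked how these RNAs were divided between nucleus and cytosol. All 3 were higher in the nucleus in both states. Without stimulation the paired fold of nucleus over cytosol was 10.1 ± 0.589 for Meg3 (SD, n = 3 pairs), 2.63 ± 0.103 for Rian and 15.2 ± 4.14 for Mirg. A fit of all genes with limma on log2(FPKM + 0.5) gave log2 differences of 3.33 ± 0.25 for Meg3 (SE, adjusted p = 2.82e-08), 1.39 ± 0.143 for Rian (adjusted p = 3.57e-07) and 3.46 ± 0.207 for Mirg (adjusted p = 1.28e-09). The added 0.5 makes the log2 difference of Mirg smaller than its fold, since its cytosolic values are low. FPKM is relative to the RNA of its own fraction, so these differences are of shares and not of molecules per compartment.

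Against the other genes, Meg3 and Mirg lay at the far nuclear end and Rian did not. Of the 14205 genes tested, 39.0% were called higher in the nucleus of unstimulated cells, so the call itself is common (5540 genes higher and 3971 lower, or 3943 and 5837 with quantile normalization). Only 16 genes had a larger difference than Meg3 and 12 a larger one than Mirg, whereas 91.3% of genes had a smaller one than Rian. With bicuculline the log2 differences were 3.08 ± 0.25 for Meg3 (adjusted p = 1.49e-07), 1.34 ± 0.143 for Rian (adjusted p = 1.07e-06) and 3.13 ± 0.207 for Mirg (adjusted p = 1.08e-08), with 31.3% of genes called higher. There 8 genes exceeded Meg3 and 6 exceeded Mirg. These 6 calls held in every alternative processing tried.

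**Figure D2:**
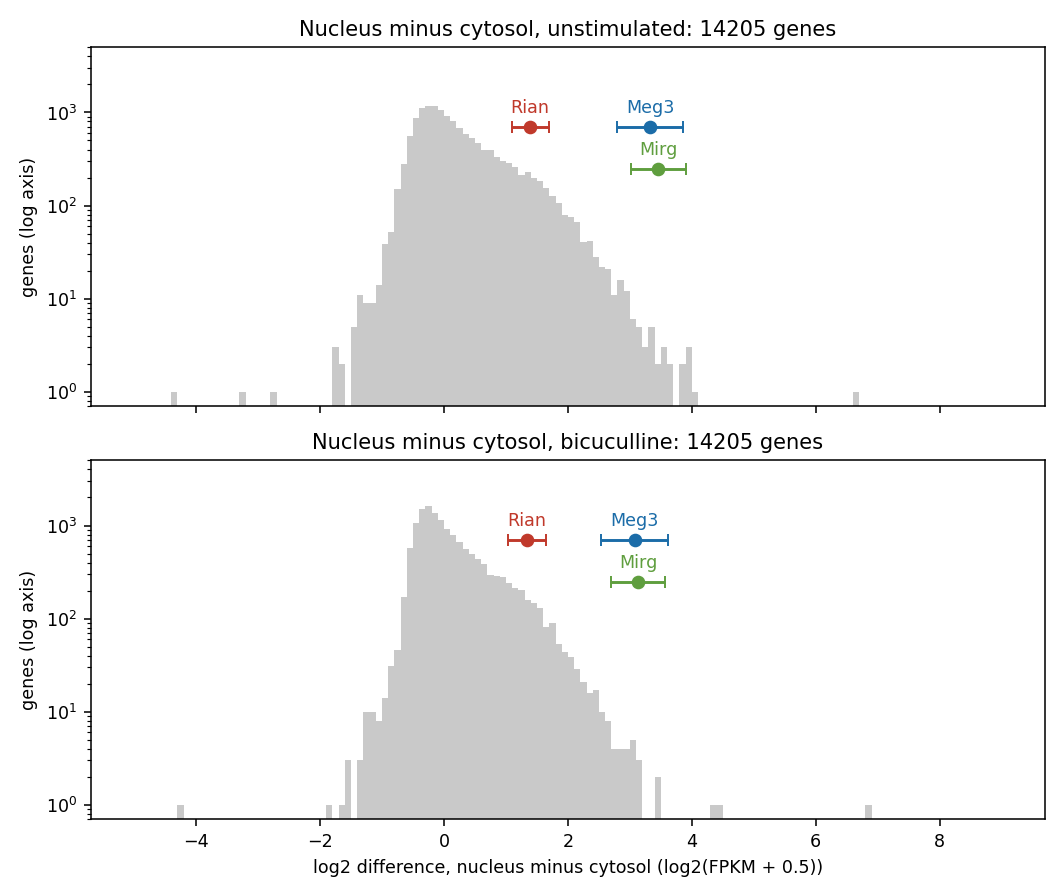
Distribution of the log2 difference between nucleus and cytosol over the 14205 genes tested (grey, counts on a log axis), unstimulated above and bicuculline below; points are the 3 RNAs with 95% intervals, at an arbitrary height. Meg3 (3.33 and 3.08) and Mirg (3.46 and 3.13) lie at the right edge and Rian (1.39 and 1.34) inside the right shoulder.

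The 3 RNAs of the locus were therefore not in the same proportion in the 2 compartments. Per length, Meg3 was 2.72 ± 0.0918 times Rian in unstimulated nuclei but 0.707 ± 0.0367 times Rian in the cytosol. Rian was 15.0 ± 1.28 times Mirg in the nuclei and 85.7 ± 16.8 times Mirg in the cytosol. The ranges of both ratios over 3 libraries did not overlap between the compartments. Placed on a linear scale from the cytosolic value (0%) to the nuclear value (100%), the whole-cell value lay at 49.8% ± 15.2 for Meg3, 47.5% ± 13.7 for Rian and 41.2% ± 12.3 for Mirg. The median of the 2000 genes whose nuclear values were all at least 2 times the cytosolic ones was 42.9% ± 7.66, and the values of the 3 RNAs differed from it by less than the spread between replicates.

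Other long noncoding RNAs give a scale for these differences. Of 22 others tested from a list of 47, 10 were called higher in the nucleus and 4 higher in the cytosol, beside 39.0% and 28.0% of all genes. Their median log2 difference was 0.26 beside 0.06 over all genes. Xist, the RNA that coats the inactive X chromosome, stood at 6.70 ± 1.07 (SE) and Firre, a nuclear RNA from the X chromosome, at 3.80 ± 0.173, both above Mirg and Meg3. Snhg11 (2.89 ± 0.171), Miat (2.72 ± 0.156), Mir124a-1hg, the host of a neuronal microRNA (1.87 ± 0.136), and Ftx (1.62 ± 0.176) lay between Meg3 and Rian. Peg13, an imprinted noncoding RNA of another locus, was lower in the nucleus (-0.55 ± 0.0608, limma adjusted p = 7.24e-07), and so was Tug1 (-0.14 ± 0.0512, adjusted p = 0.0206). Airn, an imprinted antisense RNA, was higher (1.01 ± 0.16, adjusted p = 3.56e-05).

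**Figure D3:**
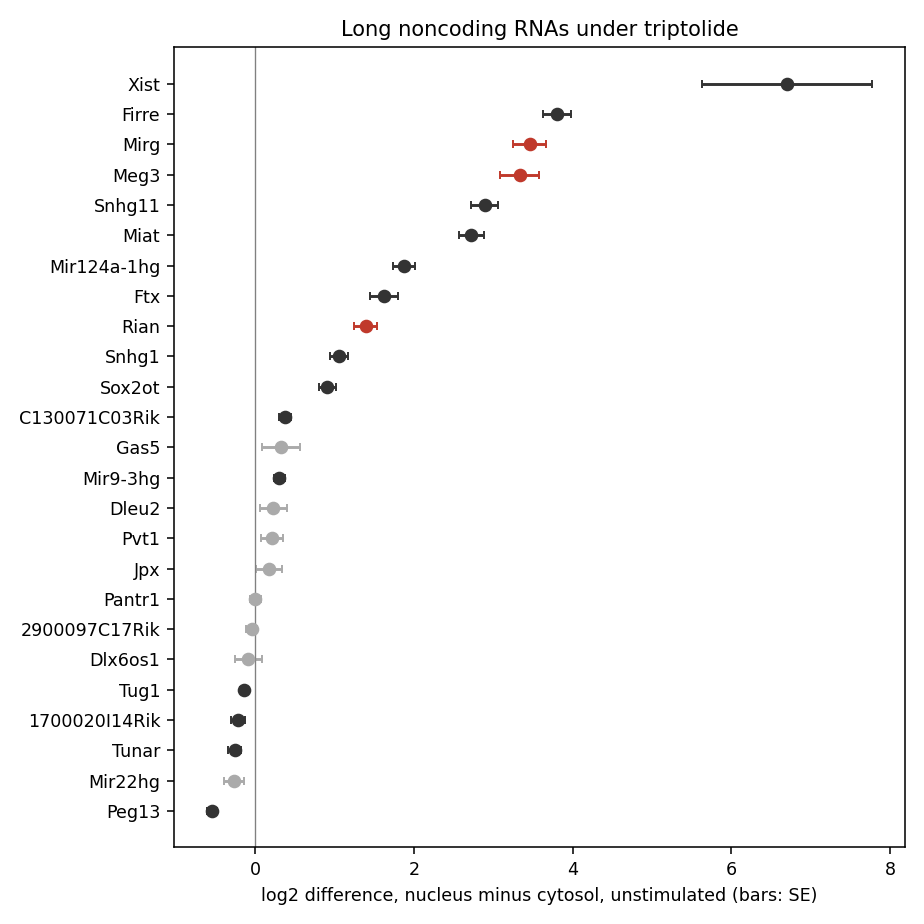
Log2 difference between nucleus and cytosol in unstimulated cells for the 3 RNAs (red) and 22 other long noncoding RNAs; dark points were called at an adjusted p under 0.05, light grey ones were not, and bars are SE. Xist and Firre lie above Mirg and Meg3, and Rian lies between Ftx and Snhg1.

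The neighbours in the domain were low. Of 32 table entries from Dlk1 to Dio3, 18 have no symbol and 7 were listed at 0 in all libraries. Besides the 3 RNAs, Dlk1, which encodes a membrane ligand related to those of Notch, was the only entry with at least 1 FPKM in at least 3 libraries, and its highest value was 2.36. Dio3, which encodes the deiodinase that inactivates thyroid hormone, reached 0.412 FPKM at most. The 7 microRNA entries reached at most 0.313 FPKM in these libraries of polyadenylated RNA, which do not measure mature microRNAs. Dlk1 had means of 1.70 and 0.640 FPKM in unstimulated nuclei and cytosol. It passed the filter mainly through its nuclear libraries, so the fit with no filter is given for it, a log2 difference of 0.89 ± 0.232 (SE, limma adjusted p = 0.00624).

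Genes of microRNA processing and of the Polycomb complex were counted as lists because of the hosts' roles, and calls were common, with 39.0% of all genes higher and 28.0% lower in unstimulated nuclei. Of 13 microRNA-processing genes tested, 9 were called higher and 2 lower in unstimulated nuclei, among them Dicer1, which encodes the enzyme that cuts hairpin precursors (1.16), and Ddx17, a helicase of the nuclear processing complex (1.67). The 2 lower were Prkra (-0.43), which encodes a partner of Dicer, and Ran (-0.51), which encodes a GTPase of nuclear transport. Of 10 Polycomb genes, 6 were higher and 2 lower, with the cofactor gene Jarid2 at 1.47 and the methyltransferase gene Ezh2 at 0.50, and with Rbbp4 (-0.17) and Rbbp7 (-0.46), which encode histone-binding subunits, lower. With bicuculline the Polycomb list had 4 higher and 2 lower, with a median of -0.01 beside -0.04 over all genes. In unstimulated nuclei the imprinted protein-coding list had 5 of 33 higher and 12 lower, beside 39.0% and 28.0% of all genes. Its largest differences were those of Ppp1r9a (1.39), Htr2a (-0.99) and Dlk1 (0.89).

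The second comparison asked whether bicuculline or BDNF changed the 3 RNAs under DRB, and none was called. With bicuculline the log2 changes were -0.30 for Meg3 (95% interval -1.28 to 0.69), -0.04 for Rian (-0.38 to 0.31) and 0.06 for Mirg (-0.70 to 0.83). With BDNF they were -0.06 for Meg3 (-1.05 to 0.92), -0.05 for Rian (-0.39 to 0.30) and -0.10 for Mirg (-0.87 to 0.66). Each of the 6 had an adjusted p of 1 by limma, and so had the 3 differences between BDNF and bicuculline. Over all genes 0.308% were called with bicuculline and 0.638% with BDNF, and 0.128% between the stimuli. The fit had no term for the replicate number, so these intervals include the differences between numbers. The SE for Meg3 was 0.434 in this fit and 0.122 with the replicate number as a block.

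Within replicate numbers Meg3 was lower in each bicuculline library than in its unstimulated partner, with ratios from 0.631 to 0.998, a direction shared by 11.3% of genes. The ratio was 0.856 in replicate 1, 0.998 in replicate 2 and 0.631 in replicate 3, so the size rests on the first and the third. With the replicate number as a block the log2 change was -0.30 ± 0.122 (SE), and limma gave an adjusted p of 0.673. With BDNF the ratios of Meg3 were 0.955 to 0.959, again lower in 3 of 3 pairs, as were 17.6% of genes. Rian had ratios of 0.914 to 1.02 with bicuculline and Mirg of 0.991 to 1.13, without a shared direction.

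The third comparison asked the same of bicuculline under triptolide in each fraction. In whole cells the log2 changes were -0.16 for Meg3, -0.05 for Rian and 0.08 for Mirg, with limma adjusted p-values of 0.901 to 0.961, and 0.0352% of genes were called (4.23% with the replicate number as a block). In nuclei they were -0.03, 0.03 and 0.14, with adjusted p-values of 0.793 to 0.974, and 1.81% of genes were called. In the cytosol they were 0.23, 0.08 and 0.47, with adjusted p-values of 0.709, 0.842 and 0.226, and 3.27% of genes were called (452 higher and 13 lower, or 19 and 12 with median-ratio scaling). None of the 9 changes was called, with or without the block.

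Mirg in the cytosol came nearest to a call. Its cytosolic level with bicuculline was 1.53 ± 0.0471 times that of the unstimulated partner (SD, n = 3), with 3 ratios from 1.497 to 1.585. The fit gave a log2 change of 0.47 (95% interval 0.03 to 0.91, limma adjusted p = 0.226), and limma with the block an adjusted p of 0.108. In the cytosol 43.8% of all genes were higher in 3 of 3 pairs, and the groups of Mirg overlapped, since 1.58 with bicuculline lies below 1.72 without. The median change over all genes was 0.08 there, and 174 genes had a larger one than Mirg. In the same comparison, where 3.27% of genes were called and most of these calls were lost with median-ratio scaling, 1 of 13 microRNA-processing genes (Dicer1, 0.39) and 1 of 10 Polycomb genes (Aebp2, 0.32) were called higher.

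In nuclei the 3 RNAs moved together between replicates. From unstimulated to bicuculline all 3 were higher in replicate 2 and lower in replicates 1 and 3, a pattern that 19.2% of genes showed in nuclei. Meg3 changed 1.53-fold in replicate 2, Rian 1.34-fold and Mirg 1.65-fold. Without that library the changes were -0.37 for Meg3, -0.20 for Rian and -0.12 for Mirg, with adjusted p-values of 0.275, 0.227 and 0.758, and the number of genes called in nuclei rose from 257 to 520. That library correlated with the other nuclei with bicuculline at 0.987 over genes, beside 0.988 and 0.989 for the others.

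The test of the difference between the nuclear and the cytosolic response called none of the 3 RNAs. The nuclear minus the cytosolic bicuculline response was -0.25 for Meg3, -0.05 for Rian and -0.33 for Mirg, with limma adjusted p-values of 0.761, 0.925 and 0.610, beside a median of -0.11 over all genes and 0.556% of genes called (12 higher and 67 lower, or 107 and 46 with median-ratio scaling). Without the replicate 2 nucleus with bicuculline these were -0.60, -0.29 and -0.59, with adjusted p-values of 0.188, 0.200 and 0.185. The bicuculline response under DRB minus that in whole cells under triptolide was -0.14, 0.01 and -0.02, each with an adjusted p of 1, and 0.138% of genes were called.

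**Figure D4:**
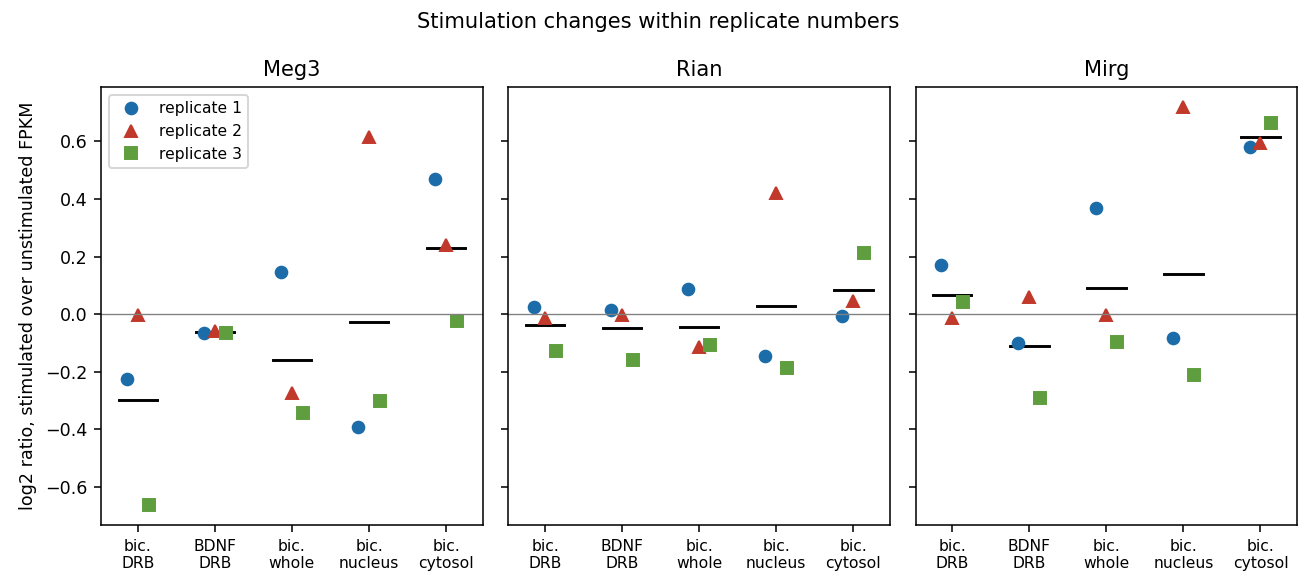
Log2 ratio of stimulated over unstimulated FPKM within each replicate number, for both stimuli under DRB and for bicuculline in 3 fractions under triptolide; points are pairs and bars are their means. The 3 points of Mirg in the cytosol lie together above 0, and replicate 2 stands apart in the nucleus for all 3 RNAs.

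The fourth comparison asked how far the RNAs differed between replicate numbers, which the sample descriptions give as N7, N8 and N10 under DRB and S1, S2 and S4 under triptolide. Libraries of the same number deviated together, but the descriptions do not say what a number stands for. Under DRB the mean of Meg3 was 146 ± 11.5 FPKM (SD, n = 3 libraries) in N7, 328 ± 7.64 in N8 and 176 ± 41.1 in N10. Rian read 114 ± 1.02, 150.4 ± 0.698 and 122 ± 7.28, and Mirg 5.94 ± 0.574, 11.9 ± 0.318 and 7.80 ± 0.943. Every N8 library stood above every other library for all 3 RNAs, as it did for 18.4% of genes, while for 14.8% every N8 library stood below.

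The spread between numbers under DRB was 1.17 on the log2 scale for Meg3 (limma F test, adjusted p = 0.000877), 0.40 for Rian (adjusted p = 0.00152) and 0.95 for Mirg (adjusted p = 0.000398). Here 34.7% of 13321 genes were called, so a call is again common, but the median spread was 0.19 and only 208 genes had a larger one than Meg3 and 345 than Mirg. The spread of Rian was larger than that of 81.8% of genes. Without the 3 N8 libraries, a choice made after seeing the data, the spread was 0.24 for Meg3 (adjusted p = 0.236), 0.10 for Rian (adjusted p = 0.402) and 0.36 for Mirg (adjusted p = 0.0373), where 4.29% of genes were called. Meg3 and Rian were thus no longer called without N8, and Mirg remained called with N10 above N7. N8 was the highest number for all 3 RNAs, so leaving it out had to lower the spread. The refit also had fewer libraries, so it does not decide what the calls rest on.

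Other measures moved with N8. Progenitor and proliferation markers summed to 37.1 to 40.0 FPKM in N8 and 59.7 to 66.0 in N7 and N10, a list of 7 genes that were all in the table. The difference came mainly from Nes (means of 19.8 FPKM in N7, 4.16 in N8 and 15.5 in N10) and Top2a (11.4, 5.87 and 11.1). Mki67, Pcna and Eomes were also lowest in N8, and Hes5 and Pax6 had N8 means between those of N7 and N10. Inhibitory-neuron markers summed to 339 to 382 in N8 and 410 to 517 in the others, pan-neuronal markers to 2718 to 2780 and 2851 to 3018, astrocyte markers to 670 to 724 and 508 to 660, and vascular and mesenchymal markers to 1.58 to 1.59 and 1.91 to 3.34. The inhibitory difference came mainly from Sst, with means of 134.3 FPKM in N7, 84 in N8 and 218.5 in N10. Of the other inhibitory genes, Gad2 had its highest mean in N8, and Gad1, Slc32a1, Npy and Dlx1 had N8 means between those of N7 and N10. The pan-neuronal and astrocyte lists also held genes going both ways, with Rbfox3 higher and Slc1a3 lower in N8. Every vascular and mesenchymal gene had means below 1 FPKM under DRB, and Kdr gave the largest part of the difference (0.562 in N7, 0.058 in N8, 0.69 in N10). Col1a1, Col1a2 and Col3a1 were also lowest in N8, Pecam1 and Flt1 lay between N7 and N10, and Pdgfrb was highest in N8. Microglia markers summed to 5.47 to 6.15 and 3.07 to 5.01, but 5 of their 6 genes were below 0.1 FPKM in N8 and the sum is almost all Aif1. Excitatory-neuron and oligodendrocyte-lineage sums of N8 overlapped the others. Xist read 8.64 to 9.83 FPKM in N8, 41.3 to 45.1 in N7 and 73.8 to 125 in N10. Their part in the result was not tested, and in these bulk libraries fewer cells of a type and less RNA per cell cannot be told apart. Estimated depth overlapped, with 83360000 to 147960000 fragments over all DRB libraries and both ends of that range in N8.

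Dlk1, read from the other parental copy, went the opposite way under DRB at low levels. Its mean was 0.620 ± 0.249 FPKM in N7, 0.0437 ± 0.0131 in N8 and 0.400 ± 0.0291 in N10, and every N8 library lay below every other. It did not pass the filter of 1 FPKM in 3 libraries there, and with no filter its spread was 1.02 (limma adjusted p = 0.0112). Under triptolide Dlk1 did not go the opposite way, since its fitted value was highest in S2 (0.172), as for the 3 RNAs. Its spread there was 0.404, with a limma adjusted p of 0.0325 in the filtered fit and 0.12 with no filter. Of the other genes under DRB, 15 of 21 tested long noncoding RNAs were called for the spread, beside 34.7% of all genes, with a median of 0.36 beside 0.19. In the imprinted protein-coding list 11 of 32 were called, a share near that of all genes, the largest spreads being those of Nnat (1.35), Dcn (1.05) and Mest (0.94), and in the microRNA-processing list 2 of 13.

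Under triptolide, in a fit with a single effect per number over all fractions, the numbers differed less for these RNAs and none was called. The spread was 0.36 for Meg3, 0.25 for Rian and 0.33 for Mirg, with limma adjusted p-values of 0.175, 0.0668 and 0.134, although 42.9% of 14205 genes were called. S2 had the highest fitted value for each RNA. In nuclei and whole cells S2 had the highest mean of all 3 RNAs, but in the cytosol S1 did. The ranking in nuclei rests largely on the S2 library with bicuculline. Among unstimulated nuclei Mirg was lowest in S2 (18.9 FPKM, beside 20.2 in S1 and 19.7 in S4). Meg3 (798 in S1, 826 in S2) and Rian (301 and 309) differed little there. Within single fractions, a choice made after seeing the data, the spreads were mostly larger. In nuclei they were 0.563 for Meg3, 0.487 for Rian and 0.397 for Mirg, with limma adjusted p-values of 0.503, 0.202 and 0.675. In whole cells they were 0.565, 0.235 and 0.401, with adjusted p-values of 0.0559, 0.132 and 0.085. In the cytosol Meg3 (0.364) and Rian (0.109) were not called, and the spread of Mirg was 0.57 (adjusted p = 0.0216), with 7.78% of genes called.

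**Figure D5:**
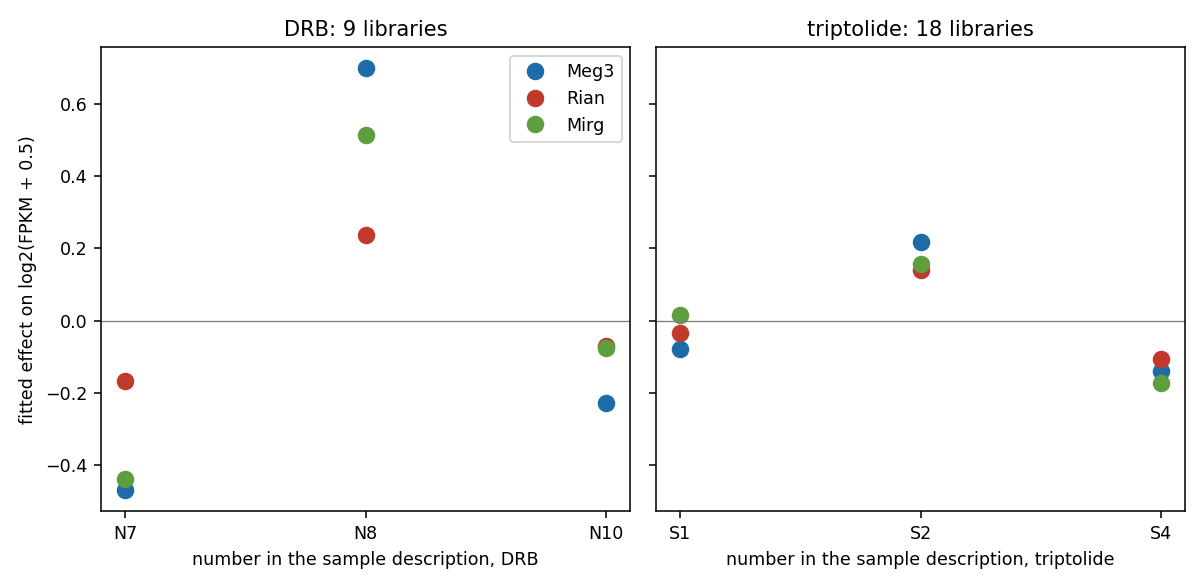
Fitted effect of each number in the sample descriptions on log2(FPKM + 0.5), after group means, for Meg3, Rian and Mirg under DRB (9 libraries) and triptolide (18 libraries). N8 lies at 0.70 for Meg3, 0.24 for Rian and 0.51 for Mirg, and S2, the highest under triptolide, at 0.22, 0.14 and 0.16.

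The 3 RNAs varied together within groups. After group means were subtracted from log2(FPKM + 0.5), Pearson's r over 27 libraries was 0.91 between Meg3 and Mirg, 0.88 between Meg3 and Rian and 0.88 between Rian and Mirg. These points share libraries and, 3 or 6 at a time, a replicate number, and the values are given as a description. Of 11301 named genes compared, 27 had a higher r with Meg3 than Mirg had, and 9 a higher r with Mirg than Meg3 had. By that measure the 5 genes most like Meg3 were Leng8 (0.990), Miat (0.986), the entry Mir1906-1 // Mir1906-2 (0.986), Dennd6b (0.961) and Ogt (0.957). Those most like Rian were Cc2d1b, Hook2, Rev1, Man2c1 and Dmxl1, at 0.939 to 0.954, and those most like Mirg were Ybx2, Akap8l, Dennd6b, Timm44 and Zfp692, at 0.928 to 0.946.

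The likeness was also computed over the 9 group means. Between the members r was 0.95 for Meg3 and Rian, 0.94 for Meg3 and Mirg and 0.81 for Rian and Mirg, and 364 genes were more like Meg3 than Rian was. The genes most like Meg3 were Mir1906-1 // Mir1906-2, D130040H23Rik, Miat, Uvssa and Macf1, at 0.995 to 0.999. Those most like Rian were Daam2, Vav3, C030023E24Rik, Mmel1 and Zfp119a, at 0.994 to 0.997, and those most like Mirg were Tia1, Stxbp2, Zufsp, Mier3 and Sptbn1, at 0.994 to 0.995.

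The entry Mir1906-1 // Mir1906-2 lies on chromosome X (chrX:88755563-88760320, mm10), while GENCODE places the hairpin Mir1906-1 inside Meg3 on chromosome 12. Its level was 2.60% to 3.68% of that of Meg3 in all 27 libraries, with a median of 3.02%, across a range of 2.03 to 42.0 FPKM. The name joins a hairpin inside Meg3 to one of the same name elsewhere, and how reads that map to several places were counted is not given in the sources used here. Its level and the part of the Meg3 level that falls on shared sequence are uncertain for that reason.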

How the data were processed

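Polyadenylated RNA was measured in 27 libraries, made with a stranded mRNA kit per the labels' protocols. The deposited table holds FPKM computed by the authors on FASTDB gene models; mm10, the aligner STAR 2.4.0 and FastQC, Picard and SAMtools are named in the submitters' processing notes. How fragments were counted, on which strand and with which treatment of reads with several positions is not given in the sources used here. Reads of overlapping genes, such as the minus-strand lincRNA inside the Meg3 span or the plus-strand one inside the Rian span, may therefore not be separable. Depth was estimated from steps of low values in 1600 single-exon entries. In them 63.6% to 77.8% of low values lay within 0.02 of a whole fragment, too few to recover counts, so no count-based test was run.

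Values were analysed as log2(FPKM + 0.5). Genes with at least 1 FPKM in at least 3 libraries of a fit were tested (13321 under DRB, 14205 under triptolide, 13814 across both), and all 3 members passed in every fit. limma 3.58.1 in R 4.3.3 (trend and robust) fitted a mean per group, with Benjamini-Hochberg adjustment over all genes tested and a call at an adjusted p under 0.05. The difference between replicate numbers was tested with the moderated F test. Same-numbered libraries deviated together: in 9 pairs under DRB the correlation of deviations from group means was 0.463 to 0.902, and in 45 pairs under triptolide 0.256 to 0.692. The replicate number was therefore used to form pairs for the ratios and as a block in an alternative fit. The main fit of group differences had no replicate term, so its SEs, intervals and p-values include the differences between replicate numbers. Nothing says that libraries come from separate cultures, so p-values measure the spread between these libraries, which may be technical. The scripts were tested on simulated data. Alternatives were another pseudocount, no filter, other scalings, plain moderation, each library left out, the replicate block and fits of only the groups compared. Python 3.11.15, pandas 2.3.3, numpy 2.4.6, scipy 1.17.1 and matplotlib 3.10.9 made summaries and figures.

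The members and gene lists were chosen with earlier results of these data known. Named genes are the members, listed genes that passed the filter, and, for each member, the 5 genes with the highest Pearson correlation.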

Additional observations from a re-analysis of the deposited data

How the results depend on the processing

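The nuclear calls of Meg3, Rian and Mirg held their direction and call in every alternative, and the calls of the spread under DRB in every alternative but 1. Without N8 (chosen after seeing the data) that spread was 0.24 for Meg3 and 0.10 for Rian and no longer called. Leaving out 1 library moved the log2 nuclear differences of Meg3 from 3.30 to 3.37, Rian from 1.33 to 1.45 and Mirg from 3.32 to 3.60 (unstimulated), and the spread of Rian under triptolide from 0.15 to 0.29, called without the replicate 2 cytosol with bicuculline (adjusted p = 0.0393). In the cytosol alone, chosen after seeing the data, the spread of Mirg was called (0.57). Changes that were never called turned sign in some alternatives. Under median-ratio scaling, with and without the replicate block, the cytosolic change of Rian was -0.02, its nuclear minus cytosolic response 0.05, and the response of Mirg under DRB minus triptolide 0.02 (0.03 with quantile normalization). Without S2, chosen after seeing the data, the nuclear changes of Rian and Mirg were -0.17 and -0.14. Leaving out 1 library moved the change with bicuculline under DRB from -0.74 to 0.00 for Meg3, -0.16 to 0.07 for Rian and -0.18 to 0.30 for Mirg; with BDNF from -0.37 to 0.24, -0.18 to 0.06 and -0.43 to 0.14; and BDNF minus bicuculline from -0.07 to 0.68, -0.14 to 0.11 and -0.49 to 0.07. In whole cells under triptolide the ranges were -0.36 to 0.03, -0.13 to 0.04 and -0.07 to 0.22, in nuclei -0.37 to 0.16, -0.20 to 0.19 and -0.12 to 0.31, for the nuclear minus cytosolic response of Rian -0.29 to 0.11, and for DRB minus triptolide -0.58 to 0.16, -0.11 to 0.11 and -0.26 to 0.22. The cause was not tested. The replicate block changed no call of a member, but it raised the genes called with bicuculline from 41 to 76 under DRB, from 5 to 601 in whole cells, from 257 to 1862 in nuclei and from 465 to 2175 in the cytosol, with BDNF from 85 to 199, between the stimuli from 17 to 72, for the nuclear minus cytosolic response from 79 to 1387 and for DRB minus triptolide from 19 to 38. Quantile normalization left 2 calls in the cytosol, where median-ratio scaling left 31, it gave 682 in nuclei, and with no filter the calls between nucleus and cytosol rose from 9511 to 19387 unstimulated and from 8983 to 16850 with bicuculline, while a fit of only the groups compared left 1 for bicuculline in nuclei. Quantile normalization turned the unstimulated split between nucleus and cytosol from 5540 higher and 3971 lower to 3943 and 5837, with the median of all genes at -0.12 in place of 0.06, and with bicuculline from 4449 and 4534 to 3374 and 5158. Without 1 library the calls ranged from 21 to 520 in nuclei (lowest without unstimulated replicate 1, highest without bicuculline replicate 2), from 12 to 334 in the cytosol (lowest without unstimulated replicate 3), from 9 to 671 for the nuclear minus cytosolic response (lowest without cytosolic bicuculline replicate 1, highest without nuclear bicuculline replicate 2), from 27 to 38 and 50 to 68 with bicuculline and BDNF under DRB, and from 2487 to 6970 for the spread under DRB (lowest without unstimulated replicate 2, highest without bicuculline replicate 3). A fit of only the groups compared is the same fit for DRB minus triptolide. Levels of Mirg in the cytosol, near 1 FPKM, are the least certain values.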
